A study of Bos taurus with 38 samples.

Results

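The liver transcriptomes of 10 Jersey dairy cows were compared within the 5 blocks in which the animals had been selected. Each block held 1 cow with a high and 1 with a low residual feed intake (RFI), and these 10 cows gave 20 of the 38 samples and 10 of the 19 cows of the series, the remainder being Holsteins. RFI is the feed a cow eats beyond what its production and body weight predict, so a high-RFI cow is the less efficient one and carries the feed efficiency label Low. The partners were cow 6020 (high RFI) with 6004 (low RFI) in block 1, 5729 with 5802 in block 2, 6162 with 6095 in block 3, 5691 with 5739 in block 4 and 6090 with 6160 in block 5. Partners shared a parity, which was 2 in block 1, 3 in blocks 2 and 4 and 1 in blocks 3 and 5.

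Every cow was biopsied once on a low-concentrate control diet (C) and once on a high-concentrate diet (HC), and partners received the diets in opposite order, so that on a given diet they were sampled in different periods. The 2 libraries of a cow were summed, which gives each block 1 difference per gene and each RFI group 5 cows. Levels are in counts scaled to a common gene total of 1000000 (CPM), scaled by the trimmed mean of M values (TMM), and every difference is high-RFI minus low-RFI cow on the log2 scale. The libraries held 18039897 to 24478289 counts on genes, 75.52 to 78.21% of the counts in each file, and the range was much the same in high-RFI (75.55 to 78.21%) and low-RFI cows (75.52 to 77.82%). The liver enzymes CYP7A1, which limits the rate of bile acid synthesis, and CYP3A4, which oxidises steroids and drugs, were detected in all 10 cows, at 89.6 to 362 CPM and 89.5 to 149.6 CPM. In whole tissue, fewer cells of a type and less RNA per cell cannot be told apart.

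The liver distributes absorbed nutrients, makes glucose, fatty acids, bile acids and plasma proteins, and clears steroids. It also holds resident white blood cells, whose transcripts (T cell receptor chains, class I antigen-presenting molecules, the immunity-associated GTPases of the GIMAP family) enter a biopsy together with those of hepatocytes. Class I molecules and GIMAP genes belong to families with several similar members in cattle.

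Not all libraries were like the other library of their cow, and this bears on 3 of the 5 blocks. Likeness was measured over the 150 genes that differed most among cows relative to the difference between a cow's 2 libraries. Each of 15 cows was held out in turn and the genes were chosen on the other 14. The 2 libraries of the cow held out correlated at r = 0.845 to 0.968, and 30 of those 30 libraries were most like their own cow's. The correlations are across genes and describe the libraries only. Over all genes tested, as deviations from the mean of the RFI group on the same diet, only 14 of the 20 Jersey libraries were most like their own cow's, and both libraries of cow 5739 (r = 0.0856) and the HC library of cow 5802 (r = 0.181) were not. Every library of the high-RFI cows was (r = 0.435 to 0.609), and all that were not belonged to low-RFI cows. The low-RFI means from which deviations were taken include the libraries labelled 6004, 6095 and 6160, described next. Values for the 4 cows never used to choose genes follow, over genes chosen on all 15. Cows 6004 and 6160, both Jersey and low-RFI, matched themselves at 0.418 and 0.464 but each other at 0.916 between the C libraries and 0.951 between the HC libraries. The C library labelled 6095, the low-RFI Jersey of block 3, matched the other library of that cow at 0.144 and the HC library labelled 6118, a high-RFI Holstein, at 0.948. The HC library labelled 6095 matched the C library labelled 6118 at 0.894.

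In 6 genes whose levels did not overlap between the breeds over those 15 cows, the library labelled 6095 C was nearer the Holstein mean in 6 and the library labelled 6095 HC nearer the Jersey mean in 5. The library labelled 6118 C was nearer the Jersey mean in 5 and that labelled 6118 HC nearer the Holstein mean in 6. The 6 genes came from a screen of all genes past a count filter. How many of them chance would give was not tested. The remaining Jersey libraries were nearer the Jersey mean in at least 5 of the 6. For the 7 Jersey cows among the 15 this followed from how the genes were chosen. Only the libraries labelled 6004 and 6160 had no part in the choice, and each was nearer the Jersey mean in 5. Libraries were used as labelled throughout. The source of these likenesses was not tested. Cows 6004 and 6160 are both low-RFI Jerseys that differ in block, parity and diet order, whereas the libraries labelled 6095 and 6118 differ in label by breed and RFI group. Differences over all 5 blocks are therefore followed by those over the 3 blocks without cows 6004 and 6160 (blocks 2, 3 and 4) and in blocks 2 and 4 alone, whose 8 libraries were most like their own cow's over the genes chosen without that cow (8 of 8) but not over all genes.

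**Figure D1:**
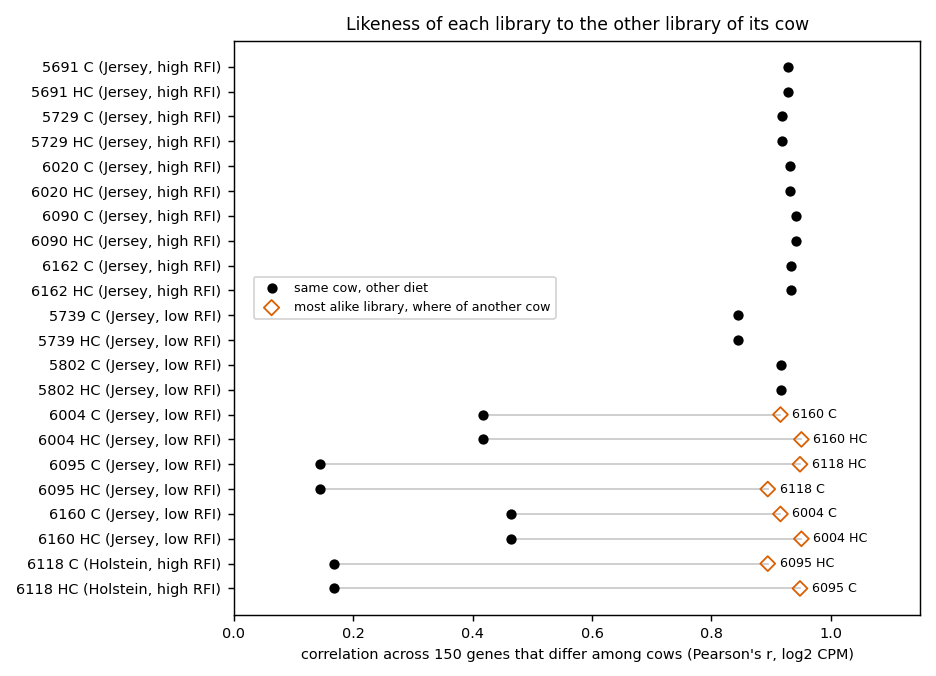
Likeness of each Jersey library, and of both libraries labelled 6118 (Holstein), to the other library of its own cow (black points, Pearson's r across 150 genes chosen without that cow) and, where another cow's library was more alike, to that library (orange diamonds, named). The libraries of 7 Jersey cows sit at 0.845 or above with their own cow, while those labelled 6004, 6160 and 6095 sit at 0.464 or below and are closer to a library of another cow.

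No gene passed the adjusted threshold of 0.05. Among 11942 genes with at least 1 CPM in 5 or more cows, edgeR's quasi-likelihood test with the block in the model called 0 genes (0%) over 5 blocks and 0 (0%) over 3 blocks. The smallest adjusted p was 0.33 over 5 blocks, shared by FDXR and MCTP2, and 0.11 over 3 blocks. At an unadjusted p under 0.05 there were 440 genes (3.68%; 214 higher and 226 lower in high-RFI cows) over 5 blocks and 327 (2.74%) over 3. Blocks 2 and 4 alone gave 0 genes at the adjusted threshold and 317 at an unadjusted p under 0.05. With DESeq2's Wald test in place of edgeR, 16 genes passed over 5 blocks and 13 over 3. Those with a symbol were BOLA-A, FDXR, PKDREJ, GNG10, C19orf81, MCTP2 and PGBD5 over 5 blocks and FICD, C19orf81 and ZNF197 over 3.

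Genes with the same sign in every block numbered 636 (5.33%), of which 324 (2.71%) had the higher level and 312 (2.61%) the lower level in the less efficient cow. Over the 3 blocks, 2523 genes (21.1%) had 1 sign. When the C and HC libraries were set against the partner's separately, 32 genes (0.268%) had the same sign in all 10 comparisons, and in 68 genes (0.569%) the 5 high-RFI cows did not overlap the 5 low-RFI cows.

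**Figure D2:**
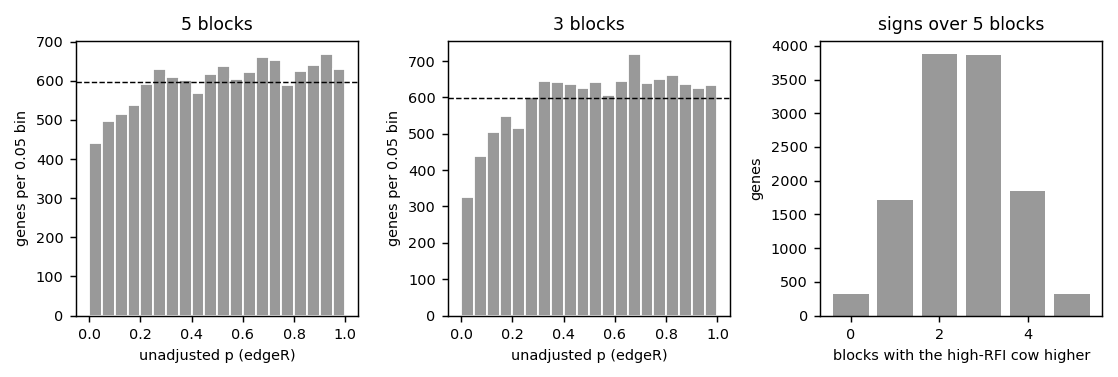
Number of genes by unadjusted p over 5 and over 3 blocks (bins of 0.05, dashed line the count per bin if p-values were even) and by the number of blocks in which the high-RFI cow was higher. The lowest bin holds 440 and 327 genes, both under the dashed line, and most genes were higher in 2 or 3 of 5 blocks.

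The blocks shared little of their differences. The SD of the within-block difference over genes was 0.345 log2 in block 5 and 0.433 in block 3, the lowest and the highest, and partners differed by over 2-fold in 180 genes (1.51%) and 366 genes (3.06%) there. Across genes, the differences of 2 blocks correlated at -0.12 to 0.20 over the 10 pairs of blocks, the highest between blocks 1 and 4. Within a block, the difference between partners on the C diet correlated with that on the HC diet at 0.40 in block 2, 0.28 in block 5 and 0.13 in block 1, but at 0.08 in block 4 and 0.07 in block 3. The biological coefficient of variation common to all genes was 0.159 with the block in the model, 0.161 with parity and 0.166 with neither.

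Among the genes with a symbol, those with the smallest p-values and 1 sign in all blocks were led by FDXR, ferredoxin reductase, the mitochondrial enzyme that passes electrons by way of ferredoxin to steroid-making cytochromes P450. FDXR was at 7.6, 7.88, 8.07, 8.14 and 8.51 CPM in the low-RFI cows of blocks 1 to 5 and at 4.75, 4.98, 4.13, 5.06 and 4.02 CPM in the high-RFI cows. All low-RFI cows lay above all high-RFI cows, and the low-RFI partner was higher in 10 of 10 library comparisons. FDXR differed by -0.81 log2 (SE 0.10, adjusted p = 0.33, edgeR), against -0.77 over 3 blocks and -0.67 in blocks 2 and 4 alone, and DESeq2 gave an adjusted p of 0.00024. With 5 blocks an exact sign-flip permutation test of the within-block differences cannot go below a two-sided p of 0.0625, the value it gave for FDXR and for every gene with 1 sign in all 5 blocks.

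CYP11A1, the side-chain cleavage enzyme that receives those electrons and starts steroid synthesis from cholesterol, was lower in the high-RFI cow in 4 of 5 blocks and 2.81 log2 higher in block 4. It was at 14.2, 20.4, 25.4, 55.1 and 9.87 CPM (high RFI, blocks 1 to 5) and 37.8, 36.4, 33.9, 7.82 and 24.8 CPM (low RFI, in the same order). CYP11A1 differed by -0.38 log2 (SE 0.58, adjusted p = 0.999, edgeR), but the value turned positive without blocks 1 and 5, at 0.40 over 3 blocks and 0.95 in blocks 2 and 4 alone. CYP3A4 was at 137, 124, 149.6, 137 and 129 CPM in the high-RFI cows of blocks 1 to 5 and at 106, 127, 89.5, 113 and 97.1 CPM in their low-RFI partners, higher in the high-RFI cow in 4 of 5 blocks with overlapping groups. CYP3A4 differed by 0.35 log2 (SE 0.10, adjusted p = 0.999, edgeR), 0.33 over 3 blocks and 0.13 in blocks 2 and 4 alone.

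MCTP2, which encodes a calcium-binding membrane protein with C2 domains, was the leading gene in the other direction. It was at 5.24, 6.14, 5.95, 4.25 and 5.6 CPM in the low-RFI cows of blocks 1 to 5 and at 9.78, 8.46, 11.4, 8.06 and 9.35 CPM in the high-RFI cows. The groups did not overlap and the high-RFI cow was higher in 10 of 10 library comparisons. MCTP2 differed by 0.79 log2 (SE 0.10, adjusted p = 0.33, edgeR), against 0.77 over 3 blocks and 0.69 in blocks 2 and 4 alone, and DESeq2 gave an adjusted p of 0.00024. PKDREJ, a gene of the polycystin family, was at 5.59, 4.37, 7.5, 1.53 and 7.27 CPM (high RFI, blocks 1 to 5) and 2.52, 1.41, 3.81, 1.41 and 2.8 CPM (low RFI, in the same order). The high-RFI cow was higher in 10 of 10 library comparisons, but the partners of block 4 were close and the groups overlapped. PKDREJ differed by 1.08 log2 (SE 0.20, adjusted p = 0.999, edgeR), 0.94 over 3 blocks and 0.91 in blocks 2 and 4 alone.

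With both libraries of a cow summed, GNG10 and ARMC10 were lower in every high-RFI cow than in any low-RFI cow. GNG10, a gamma subunit of heterotrimeric G proteins, was at 67.8, 72.6, 60.4, 59.7 and 64.7 CPM in the high-RFI cows of blocks 1 to 5 and at 86.4, 90.1, 79.2, 78.4 and 95.9 CPM in their low-RFI partners. GNG10 differed by -0.40 log2 (SE 0.06, adjusted p = 0.66, edgeR), -0.37 over 3 blocks and -0.35 in blocks 2 and 4 alone. It was -0.30 over 5 blocks when the C library of cow 6095 was left out. That cow was at 110.8 CPM on the C diet but 54.5 CPM on the HC diet, below the 63.9 CPM of its partner on HC. The low-RFI partner was higher in 9 of 10 library comparisons. ARMC10, an armadillo-repeat protein, was at 14.6, 15.4, 14.5, 13.3 and 14.6 CPM in the low-RFI cows of blocks 1 to 5 and at 11.5, 13.1, 12.3, 9.61 and 10.4 CPM in the high-RFI cows, with the low-RFI partner higher in 10 of 10 library comparisons. ARMC10 differed by -0.35 log2 (SE 0.07, adjusted p = 0.999, edgeR), -0.31 over 3 blocks and -0.35 in blocks 2 and 4 alone. It was -0.31 over 5 blocks when the C library of cow 6095 was left out. Cow 6095 was at 17.4 CPM on the C diet and 12.3 CPM on the HC diet for ARMC10. The HC library of high-RFI cow 5729 was at 13.6 CPM.

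**Figure D3:**
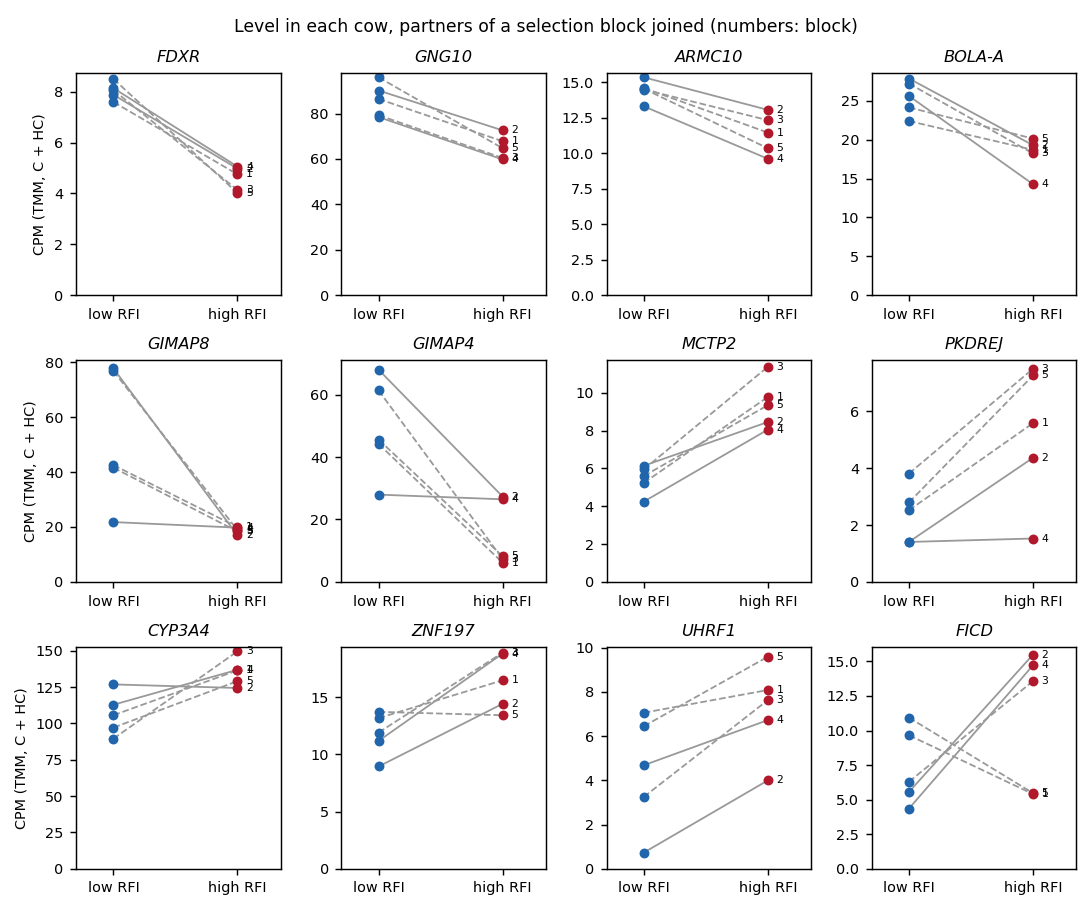
CPM of 12 named genes in the 10 cows (blue low RFI, red high RFI), with the partners of a block joined and numbered by block; dashed lines mark blocks 1, 3 and 5, which hold cows 6004, 6095 and 6160. FDXR, GNG10, BOLA-A, GIMAP8 and MCTP2 separate the groups, as do ARMC10 and GIMAP4 by a small margin. FICD is higher in the high-RFI cow in blocks 2, 3 and 4 and lower in blocks 1 and 5.

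The transcripts of antigen presentation and of white blood cells that carry a symbol were not called by edgeR, and 1 of them, BOLA-A, was called by DESeq2 (adjusted p = 0.036, lower in high-RFI cows). The 8 genes grouped as white blood cell transcripts (CD3D, NKG7, HCLS1, SLA, LYZ, CR2, GIMAP4 and GIMAP8) and the 3 genes of antigen presentation and interferon response (BOLA-A, JSP.1 and IFI6) had fitted differences with medians of -0.24 and -0.40 log2 against -0.00308 over all genes tested. 3 of the 8 and 2 of the 3 had an unadjusted p under 0.05 (3.68% of all genes), and 3 and 1 had 1 sign in all blocks (5.33% of all genes). The lower level was found in only 3 of 5 blocks for HCLS1, NKG7 and CR2, and with the HC libraries alone LYZ, NKG7 and SLA had positive differences. The genes were grouped by role after their values were known. They carry symbols because the study listed them for one breed or the other, and GIMAP4, GIMAP8 and BOLA-A were listed on these Jersey libraries, so that their direction is not independent evidence and the counts and medians are no test. Defining markers of the other white blood cell types could not be paired with identifiers here.

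GIMAP8, a GTPase of lymphocytes, was at 20, 17, 18.8, 19.7 and 18.4 CPM (high RFI, blocks 1 to 5) and 42.5, 77.7, 76.8, 21.8 and 41.6 CPM (low RFI, in the same order). The high-RFI cows lay within a narrow range and below all low-RFI cows, although cow 5739 was only just above them. GIMAP8 differed by -1.34 log2 (SE 0.28, adjusted p = 0.999, edgeR), -1.48 over 3 blocks and -1.18 in blocks 2 and 4 alone. The libraries showed 2 levels within a cow where the labels were in doubt: cow 6004 was at 21 CPM on the C diet and 61.9 CPM on the HC diet, cow 6160 at 20.7 CPM on the C diet and 62.1 CPM on the HC diet and cow 6095 at 108 CPM on the C diet and 52.2 CPM on the HC diet. In cow 5802, whose libraries were most like each other over the genes chosen without it, the values were 80.9 CPM on the C diet and 74.7 CPM on the HC diet.

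GIMAP4 was at 6.13, 27.3, 7.31, 26.5 and 8.22 CPM in the high-RFI cows of blocks 1 to 5 and at 44.2, 68, 61.4, 28 and 45.6 CPM in their low-RFI partners. Every high-RFI cow was again below every low-RFI cow, but the high-RFI cows lay at 2 levels, with those of blocks 2 and 4 near the low-RFI cow of block 4. GIMAP4 differed by -1.96 log2 (SE 0.44, adjusted p = 0.999, edgeR), against -1.46 over 3 blocks and -0.70 in blocks 2 and 4 alone. Reads of GIMAP genes can be shared between near copies, so the levels of GIMAP4 and GIMAP8 are uncertain to that extent.

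BOLA-A, a heavy chain of the bovine class I histocompatibility complex, was at 22.4, 27.9, 27.2, 25.6 and 24.2 CPM in the low-RFI cows of blocks 1 to 5 and at 18.7, 19.3, 18.2, 14.3 and 20.2 CPM in the high-RFI cows. The groups did not overlap and the low-RFI partner was higher in 10 of 10 library comparisons. BOLA-A differed by -0.49 log2 (SE 0.10, adjusted p = 0.999, edgeR), -0.65 over 3 blocks and -0.69 in blocks 2 and 4 alone. JSP.1, another class I heavy chain, was at 77.3, 168, 127, 74.7 and 77.9 CPM (high RFI, blocks 1 to 5) and 86.8, 325, 118, 129 and 88.8 CPM (low RFI, in the same order), lower in the high-RFI cow in 4 of 5 blocks. Cow 6095 was at 32.3 CPM on the C diet and 188 CPM on the HC diet for this gene, below its partner on one diet and above it on the other. JSP.1 differed by -0.40 log2 (SE 0.16, adjusted p = 0.999, edgeR), -0.55 over 3 blocks and -0.87 in blocks 2 and 4 alone. The 2 class I genes are near copies of others in the genome and their counts are uncertain.

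CD3D, a chain of the T cell receptor complex, was at 3.05, 3.18, 3.25, 3.75 and 3.32 CPM in the high-RFI cows of blocks 1 to 5 and at 3.47, 6.72, 3.73, 4.57 and 3.38 CPM in their low-RFI partners, lower in the high-RFI cow in 5 of 5 blocks with overlapping groups. CD3D differed by -0.36 log2 (SE 0.17, adjusted p = 0.999, edgeR), -0.52 over 3 blocks and -0.69 in blocks 2 and 4 alone. LYZ, the lysozyme of phagocytes, and HCLS1, a cytoskeletal adaptor of blood cells, differed by -0.27 (SE 0.10) and -0.18 (SE 0.08) log2. LYZ was lower in 4 of 5 blocks and HCLS1 in 3 of 5. LYZ gave -0.20 over 3 blocks and -0.13 in blocks 2 and 4 alone, and HCLS1 -0.22 over 3 blocks and -0.21 in blocks 2 and 4 alone. For LYZ the difference was -0.60 with the C libraries alone and 0.060 with the HC libraries alone. The block differences of NKG7 (cytotoxic granules), SLA (an adaptor of lymphocyte receptors), CR2 (the complement receptor of B cells) and IFI6 (interferon-induced) took both signs.

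**Figure D4:**
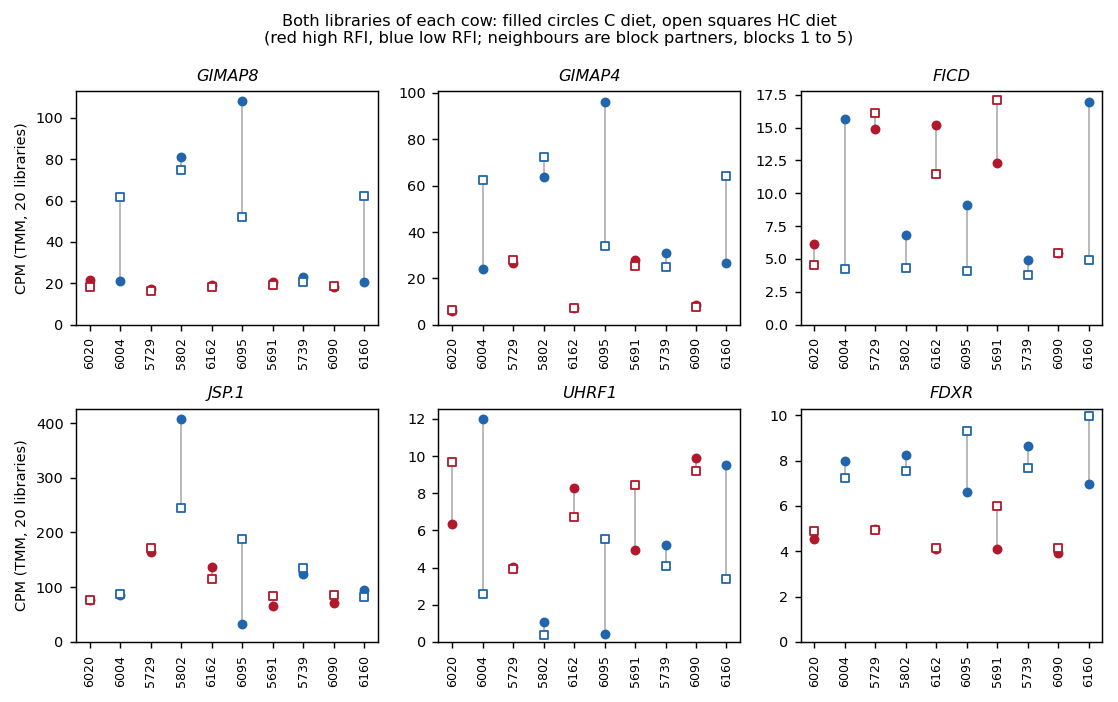
CPM of 6 named genes in both libraries of each cow (filled circles C diet, open squares HC diet, red high RFI, blue low RFI, block partners side by side). The libraries of most cows lie close together, whereas those labelled 6004, 6095 and 6160 lie far apart in GIMAP8, GIMAP4 and UHRF1, and the FDXR levels of both diets separate the RFI groups in every cow.

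The values of FICD and UHRF1 varied with the libraries that entered. FICD, which modifies the chaperone BiP of the endoplasmic reticulum, was at 9.66, 5.56, 6.3, 4.36 and 10.9 CPM in the low-RFI cows of blocks 1 to 5 and at 5.4, 15.5, 13.6, 14.7 and 5.47 CPM in the high-RFI cows. Over 5 blocks the fitted difference was 0.52 log2 (SE 0.45, adjusted p = 0.999, edgeR), against 1.44 (adjusted p = 0.999, edgeR) over 3 blocks and 1.61 in blocks 2 and 4 alone, and DESeq2 called it over 3 blocks (adjusted p = 1.6e-07). Cow 6004 was at 15.6 CPM on the C diet and 4.24 CPM on the HC diet and cow 6160 at 16.9 CPM on the C diet and 4.89 CPM on the HC diet. With the HC libraries alone the difference over 5 blocks was 1.19, and with the C libraries alone 0.05.

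UHRF1, which guides maintenance DNA methylation in dividing cells, was at 8.08, 4, 7.62, 6.72 and 9.59 CPM (high RFI, blocks 1 to 5) and 7.06, 0.73, 3.25, 4.68 and 6.45 CPM (low RFI, in the same order). It was higher in the high-RFI cow in 5 of 5 blocks, with overlapping groups and with cow 5802 the lowest of the 10. UHRF1 differed by 0.90 log2 (SE 0.28, adjusted p = 0.999, edgeR), 1.31 over 3 blocks and 1.36 in blocks 2 and 4 alone. Its libraries differed within cow 6004 (12 CPM on the C diet and 2.58 CPM on the HC diet) and cow 6095 (0.442 CPM on the C diet and 5.54 CPM on the HC diet), and the value was 0.69 with the C and 1.43 with the HC libraries alone.

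The 19 genes that the study listed for RFI in Jerseys were all tested, 9 with a positive and 10 with a negative difference. Within blocks 5 were higher and 7 lower in all 5 blocks (2.71% and 2.61% of all genes), 8 did not overlap between the groups (0.569% of all genes) and 5 had 1 sign in 10 of 10 library comparisons (0.268% of all genes). In edgeR 0 passed the adjusted threshold in either fit. DESeq2 called 8 of them over 5 blocks (BOLA-A, FDXR, PKDREJ, GNG10, C19orf81, MCTP2, PGBD5 and ENSBTAG00000027727) and 3 over 3 (C19orf81, ZNF197 and ENSBTAG00000040323). The list was made from these libraries and from the same contrast, so these counts describe it and are no test. Besides the genes above, it holds ZNF197 and ZNF613 (zinc finger proteins), EXTL2 (a glycosyltransferase), RASEF (a Rab GTPase), PGBD5 (derived from a transposase), TMEM102 and C19orf81.

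ZNF197 was at 16.5, 14.4, 18.9, 18.8 and 13.4 CPM in the high-RFI cows of blocks 1 to 5 and at 13.2, 8.94, 11.9, 11.2 and 13.7 CPM in their low-RFI partners and was higher in 4 of 5 blocks. ZNF197 differed by 0.48 log2 (SE 0.12, adjusted p = 0.999, edgeR), 0.70 over 3 blocks and 0.72 in blocks 2 and 4 alone. EXTL2, at 0.785 to 2.72 CPM, was higher in the high-RFI cow in 4 of 5 blocks and gave 0.88 log2 over 5 blocks, 1.40 over 3 blocks and 1.20 in blocks 2 and 4 alone. ZNF613 was lower in 4 of 5 blocks (-0.64 log2, SE 0.19) and gave -0.59 over 3 blocks and -0.21 in blocks 2 and 4 alone.

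PGBD5, RASEF, TMEM102 and C19orf81 had levels near the detection filter. PGBD5 was lower in 4 of 5 blocks (-1.64 log2, SE 0.48) with block 3 in the opposite direction, and gave -1.22 over 3 blocks and -2.27 in blocks 2 and 4 alone. RASEF was lower in 4 of 5 blocks (-1.57 log2, SE 0.56) and highest in cow 5802, at 8.01 CPM against 0.947 to 2.09 CPM in the remaining low-RFI cows. RASEF gave -1.38 over 3 blocks and -1.19 in blocks 2 and 4 alone. TMEM102 (1.39 log2, SE 0.39) and C19orf81 (2.13 log2, SE 0.59) were higher in all 5 blocks. TMEM102 gave 0.83 over 3 blocks and 0.33 in blocks 2 and 4 alone. C19orf81 gave 3.25 over 3 blocks and 5.46 in blocks 2 and 4 alone. It had 1 count in cow 5802 and 2 counts in cow 5739 over both libraries, so that the size of its difference is poorly set.

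**Figure D5:**
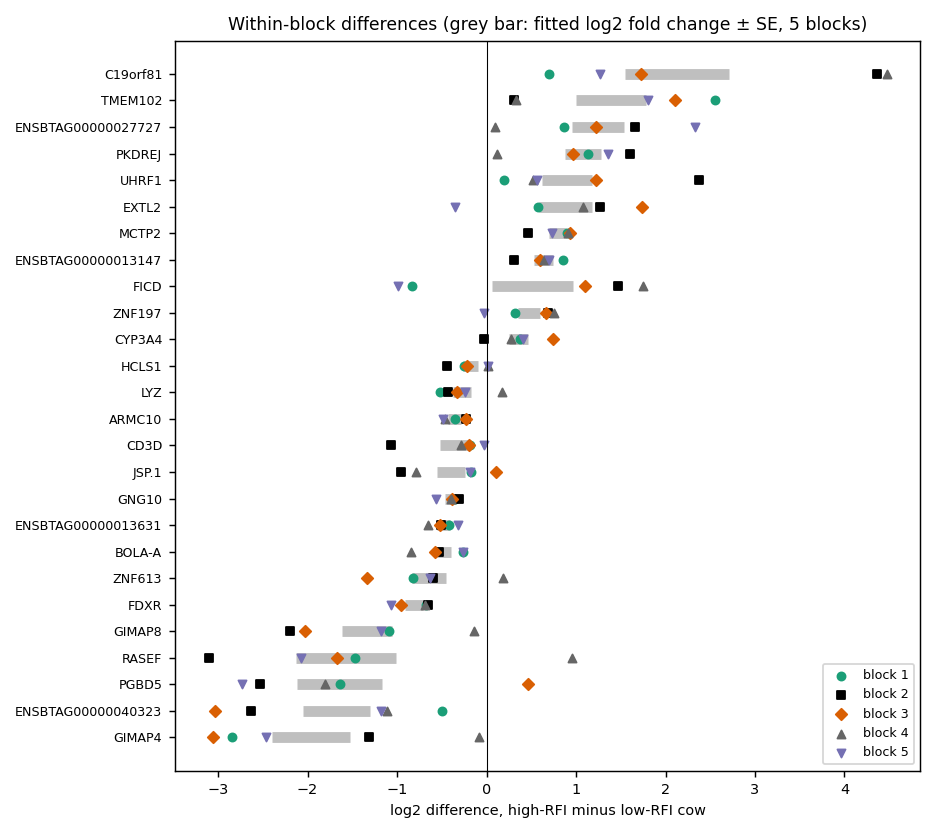
Log2 difference between the partners of each block for 26 named genes, ordered by the fitted difference over 5 blocks (grey bar, ± SE). The 5 blocks lie close together for FDXR, MCTP2, GNG10 and ARMC10. They are spread over 2 log2 units or more for RASEF (the widest), C19orf81, PGBD5, GIMAP4, FICD, ENSBTAG00000040323, TMEM102, ENSBTAG00000027727, UHRF1, EXTL2 and GIMAP8.

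Of the 20 genes with the smallest p-values and 1 sign in all blocks, 12 had no symbol. ENSBTAG00000013147 was at 4.91, 2.72, 3.34, 2.22 and 4.01 CPM in the low-RFI cows of blocks 1 to 5 and at 8.94, 3.39, 5.07, 3.5 and 6.55 CPM in the high-RFI cows, and its difference was 0.63 log2 (SE 0.11), 0.53 over 3 blocks and 0.48 in blocks 2 and 4 alone. ENSBTAG00000013631 was at 374, 264, 246, 242 and 424 CPM (high RFI, blocks 1 to 5) and 502, 375, 352, 379.7 and 530.0 CPM (low RFI, in the same order) (-0.48 log2, SE 0.07), and was -0.65 with the C and -0.28 with the HC libraries alone, and -0.56 over 3 blocks and -0.58 in blocks 2 and 4 alone. A pair of identifiers of the Jersey list without a symbol, ENSBTAG00000027727 (1.25 log2, SE 0.29) and ENSBTAG00000040323 (-1.68 log2, SE 0.38), had 1 sign in all blocks. ENSBTAG00000027727 gave 1.01 over 3 blocks and 0.90 in blocks 2 and 4 alone, and ENSBTAG00000040323 -2.27 over 3 blocks and -1.87 in blocks 2 and 4 alone.

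The genes that the study listed for Holsteins were chosen on the libraries labelled Holstein, those labelled 6118 among them. Of 70, 69 were tested in the Jersey blocks, 31 with a positive and 38 with a negative difference and a median of -0.03 log2, 7 had an unadjusted p under 0.05 (against 3.68% of all genes), 6 had 1 sign in all blocks (against 5.33%) and 0 passed the adjusted threshold. The metabolic genes of the list named here had an unadjusted p above 0.05. ACACA and ELOVL6, which make and elongate fatty acids, and DGAT2, which completes triglycerides, gave -0.09 (SE 0.15), 0.08 (SE 0.12) and -0.04 (SE 0.13) log2. Over 3 blocks ACACA was -0.34 and lower in 3 of 3, ELOVL6 turned to -0.15, and DGAT2 was -0.13. HSD17B4, HACL1 and ACOT8, enzymes of peroxisomal fatty acid breakdown, gave 0.05 (SE 0.08), 0.11 (SE 0.15) and 0.02 (SE 0.15) log2, each with both signs among the blocks, and 0.04, -0.0157 and -0.19 over 3 blocks. BDH2, a dehydrogenase of ketone body metabolism, was higher in the high-RFI cow in 4 of 5 blocks (0.29 log2, SE 0.24), with 0.17 over 3 blocks and 0.69 in blocks 2 and 4 alone.

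CYP7A1 and NR1H4, the bile acid receptor that restrains it, gave -0.08 (SE 0.30) and 0.07 (SE 0.14) log2 over 5 blocks and -0.58 and 0.0332 over 3. CYP7A1 ranged from -1.42 in block 3 to 0.70 in block 1, and cow 6095 was at 139.9 CPM on the C diet and 544 CPM on the HC diet. Both differences over 5 blocks were smaller than their SE, and both genes had blocks of either sign. Known changes were simulated, with the same spread for all genes, only to test the scripts. What size of difference 5 pairs could detect given the real spread of each gene was not tested.

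When the 4 complete Holstein blocks were fitted together with the Jersey blocks, a comparison added after these results were known, the RFI difference differed between the breeds in 0 genes (0%) at the adjusted threshold (edgeR) and in 637 (5.33%) at an unadjusted p under 0.05. Without the blocks of cows 6095 and 6118 the numbers were 0 and 739. FDXR differed by -0.06 log2 in the Holstein blocks (adjusted p of the breed difference = 0.86, edgeR) and MCTP2 by -0.00675 (adjusted p = 0.71, edgeR). Without the blocks of cows 6095 and 6118 these values were -0.19 (adjusted p of the breed difference = 0.82, edgeR) and 0.05 (adjusted p = 0.69, edgeR). Several of the immune transcripts had the opposite sign in the Holstein blocks, where the high-RFI cows gave 1.64 for GIMAP4, 0.95 for GIMAP8, 0.20 for BOLA-A, 2.16 for JSP.1, 0.63 for CD3D and 0.90 for LYZ. Without the blocks of cows 6095 and 6118 the Holstein values, in the same order, were 1.78, 0.70, 0.27, 2.81, 0.78 and 0.83. NKG7, HCLS1, SLA and IFI6 were also positive in the Holstein blocks (0.51, 0.44, 0.41 and 0.54). CR2 was negative in both breeds, at -0.61 in the Holstein and -0.21 in the Jersey blocks. Its values were -0.69 and -0.33 without the blocks of cows 6095 and 6118. UHRF1 gave -2.84 in the Holstein blocks. The breed difference had an adjusted p of 0.56 for LYZ (unadjusted p = 9.3e-05, the smallest of the genes named here), 0.71 for UHRF1, GIMAP4 and GIMAP8 and 0.85 for JSP.1 (edgeR). JSP.1, CD3D, LYZ, NKG7, HCLS1, SLA, IFI6, CR2 and UHRF1 were listed by the study on the Holstein libraries, so their Holstein values are not independent evidence. FDXR, MCTP2, GIMAP4, GIMAP8 and BOLA-A were listed on the Jersey libraries. Their Jersey values were thus selected to be large, and a smaller or opposite Holstein value is no independent evidence of a breed difference.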

How the data were processed

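Liver biopsies were sequenced as stranded mRNA libraries. Per the labels, the authors aligned reads with STAR 2.3.0 to the UMD3.1 bovine genome, and the deposited files hold HTSeq counts per Ensembl gene, not normalized. Rows outside genes (21.8 to 24.5% of a file) were left out. The C and HC counts of a cow were summed. Genes with at least 1 CPM in 5 or more cows were tested in edgeR 4.0.16 (R 4.3.3; TMM, quasi-likelihood, block and RFI group, two-sided) with Benjamini-Hochberg adjustment over all genes tested. Log2 levels used a prior count of 2. Blocks came from the study's selection table. Partners' deviations from the RFI group means correlated at -0.02 to 0.15 across genes. Scripts were tested on simulated data. Likeness of libraries was computed on log2 CPM of all 38, over genes with the largest ratio of between-cow to within-cow variance and an SD over 0.5, leaving out cows 6004, 6160, 6095 and 6118, and the cow examined, when genes were chosen, a check added after seeing the data.

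Named genes were those past the threshold in either fit (none), the 10 of each direction with the smallest p, 1 sign in 5 blocks and a mean of at least 2 CPM, the study's Jersey list, and up to 4 members of each gene list with the smallest p. UHRF1, FICD, LYZ, HCLS1 and the genes grouped by role with them were added after their values were seen. The members and lists were chosen with earlier results of these data known. Symbols came only from the study's gene lists (77 symbols among 89 identifiers), so of 35 pathway and marker lists with 609 symbols 23 could be paired and no list reached 80% of its members. These lists are void as lists and only their paired members are described. Alternatives were RLE factors, other filters, DESeq2 1.42.0, limma-voom (limma 3.58.1), 1 diet, unsummed libraries, no block, the RFI value, merged blocks, each block left out, and, chosen after seeing the data, settings without doubted libraries.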

Additional observations from a re-analysis of the deposited data

Results flagged for a closer look

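In 5 of 102 sets of 5 cows (51 genes, each in 2 RFI groups) 1 cow stood apart from the other 4 on the log2 scale by more than 0.71 of the whole range; chance alone sets apart about 1 in 20. CYP11A1 was 7.82 CPM in cow 5739 against 24.8 to 37.8 CPM in the other low-RFI cows. SLA was 8.03 CPM in cow 5739 against 5.1 to 5.62 CPM in the other low-RFI cows. BDH2 was 55.8 CPM in cow 6095 against 31.3 to 34.7 CPM in the other low-RFI cows, with 66.1 CPM in the library labelled C and 48 CPM in that labelled HC. Those libraries matched each other at only r = 0.144 and their labels are in doubt. Whether they are 2 readings of 1 cow was not tested. ALDH18A1, which starts proline synthesis, was 27.7 CPM in cow 6020 against 21.5 to 22.7 CPM in the other high-RFI cows. SLC17A1, a phosphate and urate carrier, was 156 CPM in cow 5691 against 201 to 212 CPM in the other high-RFI cows.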

How the results depend on the processing

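The count of genes at the adjusted threshold over 5 blocks was 0 in edgeR and 16 (9 higher, 7 lower) with DESeq2. It was 4 (FDXR, PKDREJ, MCTP2 and ENSBTAG00000027727) with unsummed libraries and a random replicate block for the cow, and 1 (FDXR) with no replicate block and the RFI group alone. It was 0 with each block left out in turn and under the other alternatives run. Over the 3 blocks it was 0 in edgeR, 13 with DESeq2, 5 with unsummed libraries and that random term, 1 with parity in place of the block, 1 with no filter on low counts, and 0 to 1 with each block left out, the 1 (a gene without a symbol) without block 2. Which property of DESeq2 or of the unsummed fit gave more calls was not tested. Settings added after seeing the data (without the C library of cow 6095, blocks 2 and 4 alone, without block 3 with blocks 1 and 5 merged) gave 0. Genes with 1 sign in every block numbered 1287 to 1426 with each block left out, which asks for 4 blocks in place of 5, and 428 to 686 otherwise. Of 538 values of 26 named genes under the alternatives, 1 changed sign: LYZ, at 0.060 log2 with the HC libraries alone. The cause was not tested. Most of the 26 were chosen for 1 sign in all blocks or from the study's Jersey list. Every setting also reuses these same libraries, so few changes of sign were to be had and the count is no test. Among the genes given as descriptions only, CYP11A1, ELOVL6, HACL1, ACOT8 and ALDH18A1 changed sign over 3 blocks. The selection block changed no other call. Nothing in the labels says how libraries were batched, though the paper states that all samples were pooled and sequenced in 1 run on 4 lanes. With the block in the model, p-values measure the spread of the partner differences among these blocks.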

Other observations

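Membrane carriers and growth signals among the genes with a symbol, grouped by role after their values were known, had median differences of 0.04 and 0.07 log2. The median over all genes was -0.00308. Regardless of sign, the median size was 0.157 for the carriers and 0.072 for the growth signals, against 0.068 over all genes. The 6 carriers (SLC17A1, SLC20A1, SLC25A34, SLC35A5, SLC6A11 and MFSD1) gave -0.19 to 0.18 log2. MFSD1, a lysosomal carrier, at 107 to 150.3 CPM, gave the highest of them (SE 0.08, unadjusted p = 0.049, adjusted p = 0.999, edgeR). SOCS2, which limits growth hormone signalling, FGFR2, a fibroblast growth factor receptor, and INHBE, a hepatokine of the activin family, gave -0.06 (SE 0.14), 0.07 (SE 0.13) and 0.08 (SE 0.21) log2. CTH, which makes cysteine, gave 0.02 (SE 0.13) and was 7.96 CPM in the high-RFI cow of block 5 against 11.6 CPM in its partner, the widest of its differences.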
